A study of Mus musculus with 12 samples.

Results

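Spontaneous hepatocellular carcinomas (HCC) of B6C3F1 mice, a hybrid of the C57BL/6 and C3H strains much used in rodent bioassays, were compared with normal livers for 42 genes of the mitotic spindle, the kinetochore and the passage from G2 into mitosis. The genes were chosen by name, with earlier results of these data known. Of the 42, 41 had a probe set that named that gene alone, among 18193 genes measured. Cyclin B1 (Ccnb1) had none in the annotation used here, so no level is given for it. The study held 6 HCC and 6 normal livers from untreated mice aged 2 years, with 1 Affymetrix array per sample. The labels give no sex, batch, litter or transgene, and do not say whether each sample is a separate animal, whether the tumours were single nodules, or how much of each sample was tumour. Each gene is represented by its brightest probe set, and levels are log2 of the deposited intensity plus 16, quantile normalized, so that the scale has its floor at 4 and differences of dim genes are understated.

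Mitosis is driven by cyclin-dependent kinase 1 bound to cyclins A and B, which is switched on at the end of G2 and switched off when the anaphase promoting complex marks cyclin B and securin for destruction. Between these events the kinetochores attach chromosomes to spindle microtubules under the watch of the spindle checkpoint, and cytokinesis then divides the cell. Transcripts of these genes are made mainly in G2 and M, and most hepatocytes of an adult liver are quiescent, so the same genes are widely read as a measure of how many cells divide. In whole tissue, fewer cells making a transcript and less of it per cell cannot be told apart.

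The promoters of such genes are known for CCAAT boxes, bound by the factor NF-Y, and for the cell cycle homology element, bound by the MuvB complexes together with B-Myb and Foxm1 in dividing cells or as a repressor in resting ones. Promoter windows of 300 bases, from 250 before the start to 50 after it, were taken from RefSeq (GRCm38.p6) for 35 of the 42 genes, using the first window listed where a gene had several. Of these, 26 (74.3%) held TTTGAA, the commonest form of the element, on either strand, against 13.3% of the windows of 14367 genes measured here. The related TTTAAA was in 10 windows (28.6%, against 10.2%), CCAAT on either strand in 26 (74.3%, against 38.2%), and 2 or more CCAAT in 17 (48.6%, against 13.5%). The E2F-type motif TTTNNCGC was in 5 windows (14.3%, against 7.3%). TTTGAA was in 19 of the 25 windows of genes that rose in HCC (76.0%) and in 7 of the other 10 windows (70.0%). Those 10 include the window of Ccnb1, which did not hold it. CCAAT was in 72.0% and 80.0% of the same windows. All 4 motifs were searched on both strands; CCAATTGG counts as a CCAAT on each strand, and a CCAAT can share its last base with a TTTGAA or TTTAAA. A match is a run of letters and not a measured binding site, and these motifs were searched because they are known for this set of genes. The windows of 4 genes that rose are shown to make the layout visible, 5′ to 3′ on the gene's own strand, with the CCAAT box and both forms of the homology element, read on either strand, in capitals.
Cdk1, chr10:69352863-69353162, minus strand: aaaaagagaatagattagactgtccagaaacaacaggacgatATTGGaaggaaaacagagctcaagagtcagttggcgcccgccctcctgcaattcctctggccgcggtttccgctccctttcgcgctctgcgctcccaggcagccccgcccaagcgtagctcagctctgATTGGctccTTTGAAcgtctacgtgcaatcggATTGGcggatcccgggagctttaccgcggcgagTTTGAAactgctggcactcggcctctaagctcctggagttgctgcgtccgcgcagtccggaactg
Ccnb2, chr9:70421505-70421804, minus strand: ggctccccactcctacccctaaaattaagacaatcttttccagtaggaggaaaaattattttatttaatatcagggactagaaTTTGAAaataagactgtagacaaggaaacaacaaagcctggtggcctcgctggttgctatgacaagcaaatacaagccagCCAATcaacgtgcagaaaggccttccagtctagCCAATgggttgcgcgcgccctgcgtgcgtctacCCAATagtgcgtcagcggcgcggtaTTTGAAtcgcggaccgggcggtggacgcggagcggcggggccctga
Cdc20, chr4:118437294-118437593, minus strand: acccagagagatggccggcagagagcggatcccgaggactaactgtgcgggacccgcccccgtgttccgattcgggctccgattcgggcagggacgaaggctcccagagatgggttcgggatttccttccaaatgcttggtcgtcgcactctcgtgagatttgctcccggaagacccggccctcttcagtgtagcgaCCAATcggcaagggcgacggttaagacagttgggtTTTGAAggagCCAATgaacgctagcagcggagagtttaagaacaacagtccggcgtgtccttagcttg
Ube2c, chr2:164769679-164769978, plus strand: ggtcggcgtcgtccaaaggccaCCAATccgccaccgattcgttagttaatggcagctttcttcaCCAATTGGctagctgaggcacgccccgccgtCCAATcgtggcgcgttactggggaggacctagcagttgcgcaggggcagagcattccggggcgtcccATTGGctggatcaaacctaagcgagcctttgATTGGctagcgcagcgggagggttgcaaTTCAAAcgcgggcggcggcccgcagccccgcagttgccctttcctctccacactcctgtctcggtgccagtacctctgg
In Cdk1 a TTTGAA began 15 bases before the start and in Ccnb2 one began 4 bases after it, each downstream of 3 CCAAT. Cdc20 held 1 TTTGAA, which lay between its 2 CCAAT. Ube2c held its 1 TTTGAA on the opposite strand, read there as TTCAAA, and 6 CCAAT, a pair of which overlap on opposite strands.

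The comparison asked which of these genes differ between spontaneous tumours and normal liver. Of the 41 measured genes 29 rose in HCC, none fell and 12 did not pass (limma, Benjamini-Hochberg adjusted p under 0.05 over all 18193 genes). Over all genes 6.48% rose and 7.24% fell by the same test. The median difference of the 41 genes was 1.48 on the log2 scale, a 2.79-fold difference, beside -0.04 over all genes. The called differences ran between 0.75 and 2.95, and 26 of the 29 were at least 1. In 16 of the 41 genes all 6 HCC lay above all 6 normal livers, which held for 4.25% of all genes, and in none did all HCC lie below. At an unadjusted p under 0.05, 1 gene was lower, Bub1b, and an exact Wilcoxon test called none lower. Normal livers were dim for most of these genes: 35 of the 41 had a normal-liver mean under the median probe set, 6.90, and 12 still lay under it in HCC.

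**Figure D1:**
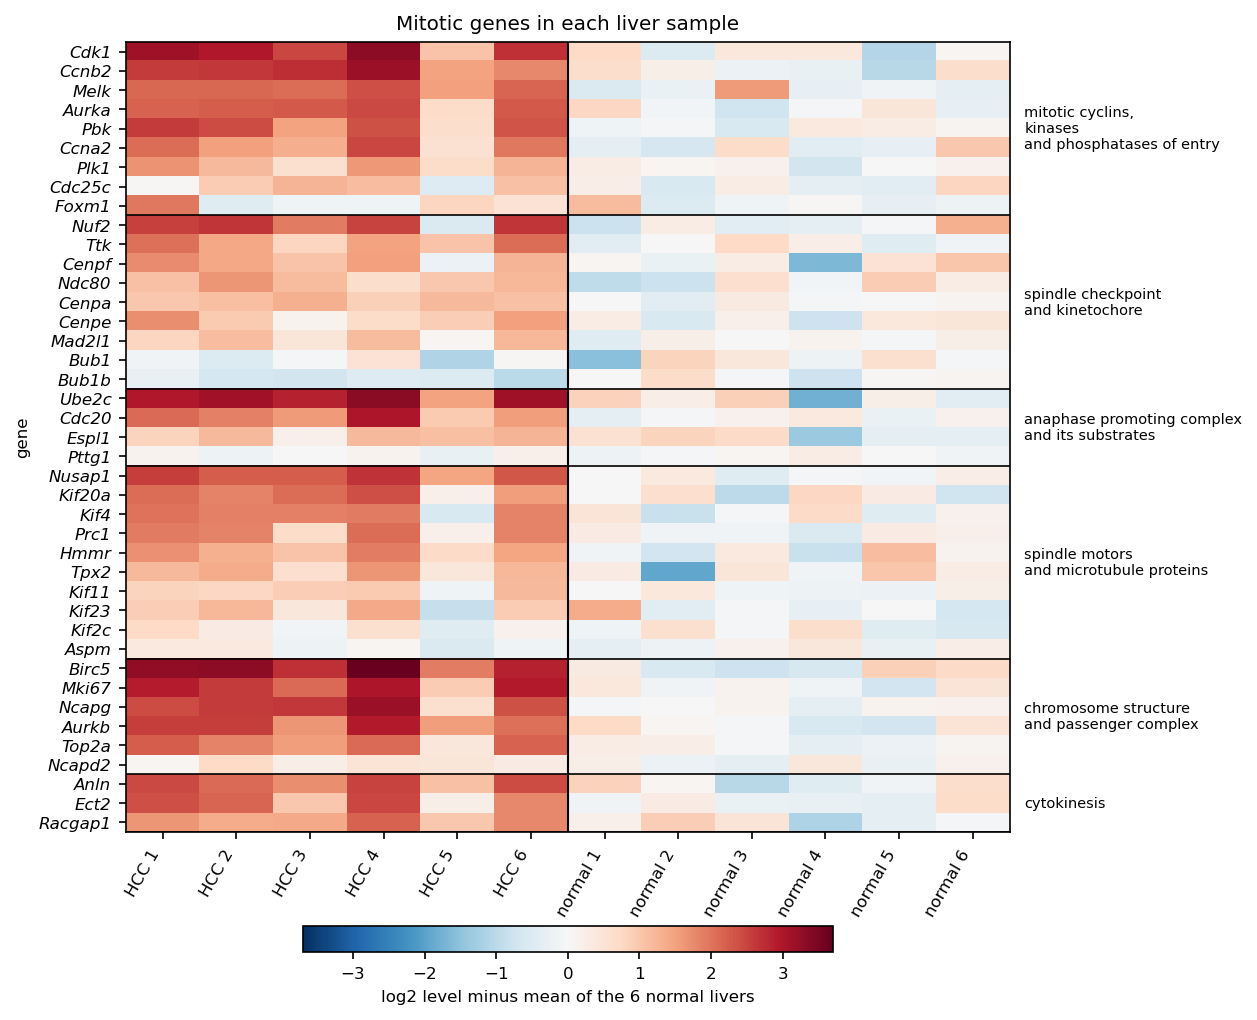
Log2 level of each of 41 mitotic genes (rows, grouped by role) on each of 12 arrays (columns, the 6 HCC left and the 6 normal livers right), as the difference from the mean of the 6 normal livers. Red marks higher levels; the columns of HCC 1, 2, 3, 4 and 6 are red across most genes, and that of HCC 5 is paler.

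**Figure D2:**
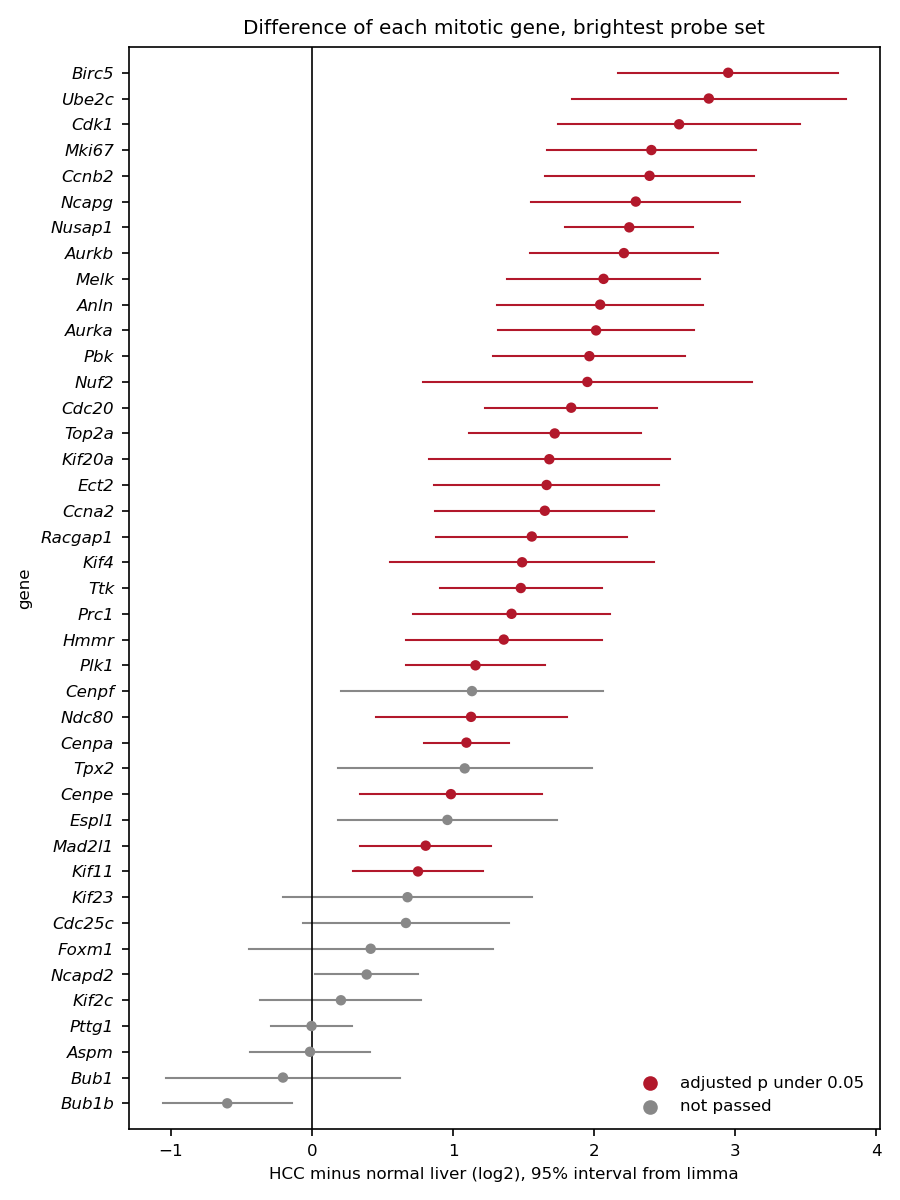
Difference between 6 HCC and 6 normal livers for each of 41 genes (log2 scale, points) with its 95% interval from limma (lines). The 29 genes that passed run between 0.75 and 2.95, and the other 12 between -0.60 and 1.13.

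Among the cyclins and kinases that start mitosis, 7 of 9 measured genes rose, with a median difference of 1.97. Cdk1, the kinase itself, had a lowest, median and highest level of 7.24, 9.02 and 9.48 in HCC, against 5.11, 6.41 and 6.92 in normal liver. The groups did not overlap, and the difference was 2.60 ± 0.40 (SE, adjusted p = 0.00134). Its partner cyclin B2 (Ccnb2) stood at 7.22, 8.33 and 8.92 in HCC, against 4.70, 5.74 and 6.39 in normal liver, again without overlap (difference 2.39 ± 0.34, adjusted p = 0.00093). Cyclin A2 (Ccna2), which acts from S phase to early mitosis, rose by 1.65 ± 0.36 (adjusted p = 0.00991), and here HCC 5, at 7.17, lay under the highest normal liver, at 7.64. Aurora kinase A (Aurka), which matures the centrosomes, rose by 2.01 ± 0.32 (adjusted p = 0.00177), and Polo-like kinase 1 (Plk1), which acts from entry to cytokinesis, by 1.16 ± 0.23 (adjusted p = 0.00587). Maternal embryonic leucine zipper kinase (Melk) rose by 2.07 and the PDZ-binding kinase (Pbk) by 1.97 (adjusted p = 0.00139 and 0.00178). Melk was close to the floor in 5 normal livers, between 4.21 and 4.61, and at 6.30 in normal 3.

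The transcription factor and the phosphatase of this group did not pass. Foxm1, which switches on many G2 and M genes, had a lowest, median and highest level of 4.82, 5.47 and 7.22 in HCC, against 4.76, 5.09 and 6.44 in normal liver. The ranges overlapped almost wholly, and the difference was 0.42 with a 95% interval between -0.45 and 1.28 (adjusted p = 0.545). None of its 4 probe sets passed, and their differences ran between -0.30 and 0.42. Cdc25c, a phosphatase that removes the inhibitory phosphates of Cdk1, was at a difference of 0.67 (interval between -0.06 and 1.40, adjusted p = 0.217). It was dim as well, with means of 5.82 in HCC and 5.15 in normal liver.

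In the group of passenger complex, condensin and chromosome genes 5 of 6 rose, with the largest median of the 6 groups, 2.25. Survivin (Birc5), the subunit that brings Aurora B to the centromere, had levels of 7.14, 8.32 and 8.91 in HCC (lowest, median, highest), against 4.50, 5.13 and 6.14 in normal liver. It had the largest difference of the 41 genes, 2.95 ± 0.36 (adjusted p = 0.000321), a 7.73-fold difference on this scale, with no overlap. Aurora kinase B (Aurkb) stood at 6.61 or more in HCC, against 5.81 or less in normal liver, a difference of 2.21 ± 0.31 (adjusted p = 0.000797). The condensin I subunit Ncapg was close to the floor of the scale in every normal liver, between 4.15 and 4.65, and between 5.09 and 7.70 in HCC. Its difference was 2.30 ± 0.34 (adjusted p = 0.00117), a size that the floor understates. Another condensin I subunit, Ncapd2, was at 0.39 (interval between 0.02 and 0.75, adjusted p = 0.149). Mki67, the Ki-67 protein that coats mitotic chromosomes, and topoisomerase II alpha (Top2a), which untangles sister DNA, did not overlap between the groups, with differences of 2.41 and 1.72 (adjusted p = 0.000869 and 0.00205).

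Of 9 genes of the spindle checkpoint and kinetochore 6 rose, with a median difference of 1.10. The centromeric histone Cenpa lay at 8.32, 8.53 and 8.76 in HCC (lowest, median, highest), against 7.06, 7.44 and 7.78 in normal liver. Its difference of 1.10 ± 0.14 was smaller than that of the cyclins but larger than the spread among arrays, with SDs of 0.157 in HCC and 0.235 in normal liver (adjusted p = 0.000432). The checkpoint kinase Ttk, also called Mps1, rose by 1.48 ± 0.26 (adjusted p = 0.00341) without overlap. Nuf2 and Ndc80, which together form the microtubule-binding arm of the NDC80 complex, rose by 1.95 ± 0.54 and 1.13 ± 0.31 (adjusted p = 0.0302 and 0.0311). For Nuf2, HCC 5 stood at 4.74, inside the normal range of 4.47 to 6.60, and the other 5 tumours lay between 7.21 and 7.93. Mad2l1, the checkpoint protein that holds Cdc20, rose by 0.81 ± 0.21 (adjusted p = 0.026), and the kinetochore motor Cenpe by 0.99 ± 0.30 (adjusted p = 0.0446).

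Several of these calls depended on single arrays. Without any 1 of 4 arrays (HCC 4, HCC 6, normal 1, normal 5) Mad2l1 no longer passed, with adjusted p up to 0.0559. Nuf2 lost its call without any 1 of 9 arrays (all but HCC 5, normal 2 and normal 6; adjusted p up to 0.0656), Ndc80 without any 1 of 6 (HCC 2, 3 and 6, normal 1, 2 and 4; up to 0.0654) and Cenpe without any 1 of 10 (all but HCC 3 and normal 6; up to 0.093). The motors Kif11 and Kif4 lost theirs without any 1 of 9 arrays each, with adjusted p up to 0.0745 for Kif11 (all but HCC 5, normal 2 and normal 6) and up to 0.0814 for Kif4 (all but HCC 5, normal 1 and normal 4). The other 23 of the 29 calls were kept whichever array was left out. The large kinetochore protein Cenpf, at 1.13 with an adjusted p of 0.101, passed only without HCC 5 (adjusted p = 0.0356).

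Around the anaphase promoting complex 2 of 4 genes rose. Its ubiquitin-conjugating enzyme Ube2c stood at 7.92, 9.47 and 9.77 in HCC (lowest, median, highest), against 4.65, 6.66 and 7.31 in normal liver, a difference of 2.81 ± 0.45 without overlap (adjusted p = 0.00175). Its activator Cdc20 stood at 8.18, 8.95 and 10.20 in HCC, against 6.88, 7.26 and 7.59 in normal liver, a difference of 1.84 ± 0.28 (adjusted p = 0.0014). Securin (Pttg1), the inhibitor that the complex destroys, was bright and level: 11.88, 12.22 and 12.34 in HCC, against 11.98, 12.13 and 12.44 in normal liver. Its difference of -0.002 had a 95% interval between -0.29 and 0.28 (adjusted p = 0.995), and its other probe sets gave -0.17 and 0.19. The brightest probe set of Pttg1 ends in _s_at, the maker's mark for probes shared with other transcripts, so signal from other loci cannot be told apart. The same limit holds for 6 other genes whose brightest probe set ends in _s_at or _x_at: Aurkb, Cdc20, Pbk and Prc1, which rose, and Foxm1 and Cdc25c, which did not pass. Separase (Espl1), which securin holds in check, was at 0.96 (interval between 0.18 and 1.74, adjusted p = 0.0962).

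Among spindle motors and microtubule proteins 6 of 10 rose. Nusap1, which bundles microtubules near chromosomes, stood at 7.56, 8.37 and 8.78 in HCC (lowest, median, highest), against 5.64, 6.06 and 6.47 in normal liver. Its difference of 2.25 ± 0.21 had the smallest adjusted p of the 41 genes, 5.3e-05. Kif20a, the motor that carries passenger proteins to the midzone, rose by 1.68 ± 0.39, Prc1, which crosslinks the midzone, by 1.42 ± 0.32, and the microtubule-binding protein Hmmr by 1.36 ± 0.32 (adjusted p = 0.0143, 0.0127 and 0.0148). The chromokinesin Kif4 rose by 1.49 ± 0.43 (adjusted p = 0.0381), with 5 tumours between 7.66 and 7.83 and HCC 5 at 5.25, inside the normal range, whose median was 5.86 and highest level 6.53. Kif11, the motor that pushes spindle poles apart, rose by 0.75 ± 0.21 (adjusted p = 0.0348). The Aurora A activator Tpx2 was at 1.08 (adjusted p = 0.104), the cytokinesis motor Kif23 at 0.68 (0.304), the microtubule depolymerase Kif2c at 0.21 (0.664) and the spindle pole protein Aspm at -0.01 (0.975).

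All 3 cytokinesis genes rose. Anillin (Anln), the scaffold of the contractile ring, stood at 6.97, 8.14 and 8.38 in HCC (lowest, median, highest), against 4.87, 5.86 and 6.74 in normal liver, without overlap (2.04 ± 0.34, adjusted p = 0.00223). Ect2, the exchange factor that activates RhoA at the division plane, rose by 1.66 ± 0.37 and its partner Racgap1 by 1.56 ± 0.31 (adjusted p = 0.011 and 0.00658). HCC 5 was inside the normal range for Ect2, at 6.53, and above it for Racgap1, at 7.35.

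Several of the genes that did not pass on the brightest probe set had another probe set that did. The 41 genes had 88 probe sets, of which 39 were called higher and none lower when every probe set was tested on its own, beside 5.14% called higher of 34945 probe sets that name 1 gene. Among 26 genes with more than 1 probe set, all passed in 3, none passed in 8 and they split in 15. The 4 genes without a call that had another probe set past the test were the checkpoint kinase Bub1, its relative Bub1b, Aspm and Kif2c. Bub1 on its dimmer probe set stood at 5.97, 6.78 and 7.63 in HCC (lowest, median, highest), against 4.16, 4.28 and 4.53 in normal liver. That difference was 2.47 ± 0.23 (limma over probe sets, adjusted p = 6.11e-05), without overlap, while its brightest probe set gave -0.20 ± 0.38. Bub1b on another probe set was at 1.83 ± 0.23 without overlap (adjusted p = 0.000517), against -0.60 ± 0.21 on its brightest. The second values were 1.78 ± 0.37 for Aspm and 1.73 ± 0.36 for Kif2c (adjusted p = 0.00938 and 0.00927). In the other direction Cenpa, Hmmr, Racgap1, Top2a and Ttk were called on their brightest probe set and had another of negative sign, between -0.47 and -0.02, that did not pass. Counting a gene where at least 1 probe set passed gave 32 of 41. This adds the 4 genes and leaves out Cenpe, called in the gene test but not on either probe set over all probe sets (adjusted p = 0.0534 and 0.105). It is a count that favours genes with many probe sets; which transcripts each probe set detects was not tested.

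**Figure D3:**
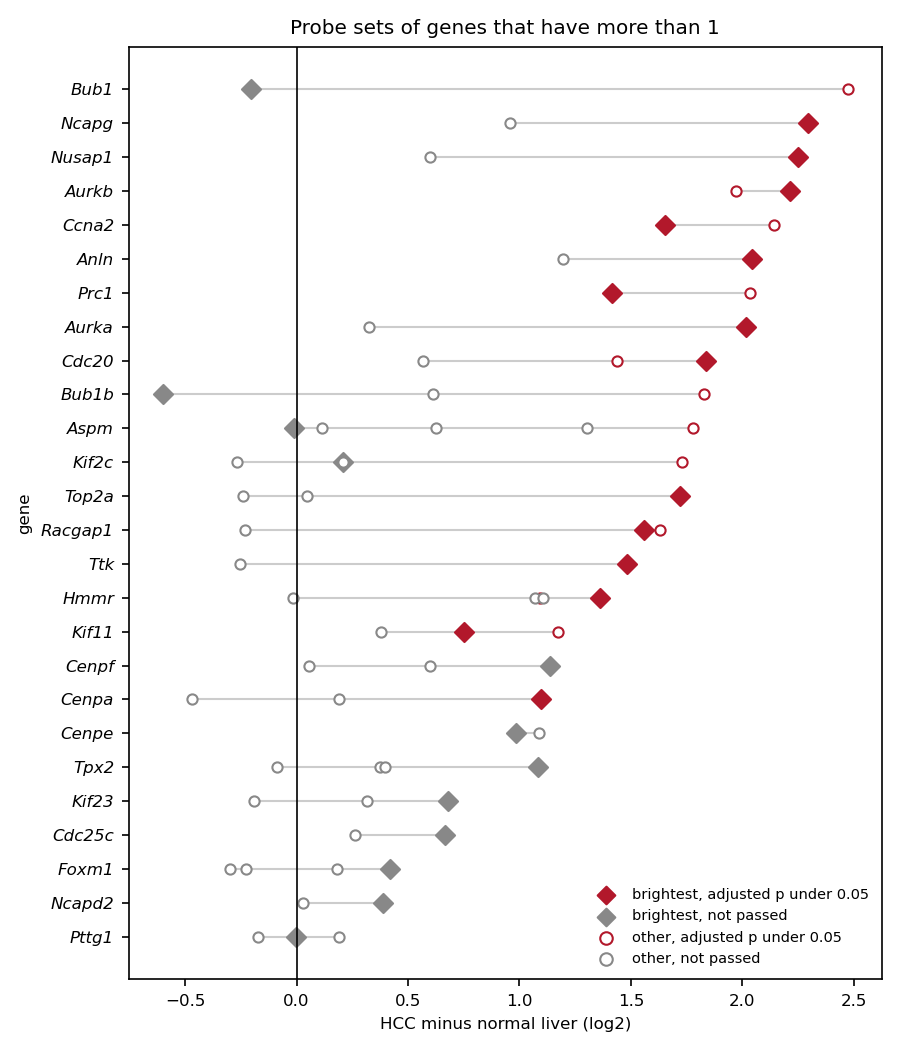
Difference between HCC and normal liver (log2 scale) for every probe set of the 26 genes with more than 1, with the brightest probe set of each gene as a diamond and the others as circles. Red marks an adjusted p under 0.05 over all probe sets; Bub1, Bub1b, Aspm and Kif2c have a grey diamond near or below 0 and a red circle between 1.73 and 2.47.

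The tumours were not alike. Averaged over the 41 genes, HCC 4 lay 1.79 above normal liver on the log2 scale and HCC 1 lay 1.68 above it. HCC 2 and HCC 6 both lay 1.54 above, HCC 3 1.20 and HCC 5 0.50, with an SD of 0.152 among the normal livers. HCC 5 was the lowest tumour in 32 of the 41 genes, and in 16.4% of all genes. HCC 4 was the highest in 21 of them, and in 12.9% of all genes. HCC 5 exceeded all 6 normal livers in 20 of the 41 genes (20.8% of all genes did), as did HCC 3 in 29 (22.9%) and HCC 6 in 33 (24.8%). For HCC 1, HCC 2 and HCC 4 the count was 34 each, beside 22.2%, 20.1% and 21.7% of all genes. HCC 5 had the smallest count of the 6 tumours, and its share, 48.8% of the 41 genes, was above that of all genes. Without HCC 5 the median difference was 1.66 and 29 genes rose, 28 of them the same, with Cenpf in and Cenpe out.

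The genes differed in where HCC 5 lay. Mki67 was at 7.58 in HCC 5, above the highest normal liver at 7.10, while the other tumours lay between 8.71 and 9.63. Cenpa was at 8.64 in HCC 5, inside the range of the other tumours, and so was Ndc80 at 6.41. By role, the mean of HCC 5 relative to normal liver was 0.98 for the passenger, condensin and chromosome genes and 0.82 for the anaphase promoting complex group. It was 0.77 for cyclins and kinases, 0.76 for cytokinesis, 0.21 for checkpoint and kinetochore genes and 0.04 for spindle motors and microtubule proteins. These are distances from normal liver and not from the other tumours, which differed by role as well. The other tumours lay between 1.80 and 2.57 for the passenger, condensin and chromosome genes. They lay between 0.68 and 1.17 for checkpoint and kinetochore genes and between 0.96 and 1.56 for spindle motors and microtubule proteins. The median SD of the 41 genes was 0.572 in HCC and 0.534 in normal liver, and 0.335 in HCC once HCC 5 was left out. HCC 5 was picked for its low values, so leaving it out in itself tends to lower the SD and raise the median difference. For the SD no normal liver was left out in the same way.

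**Figure D4:**
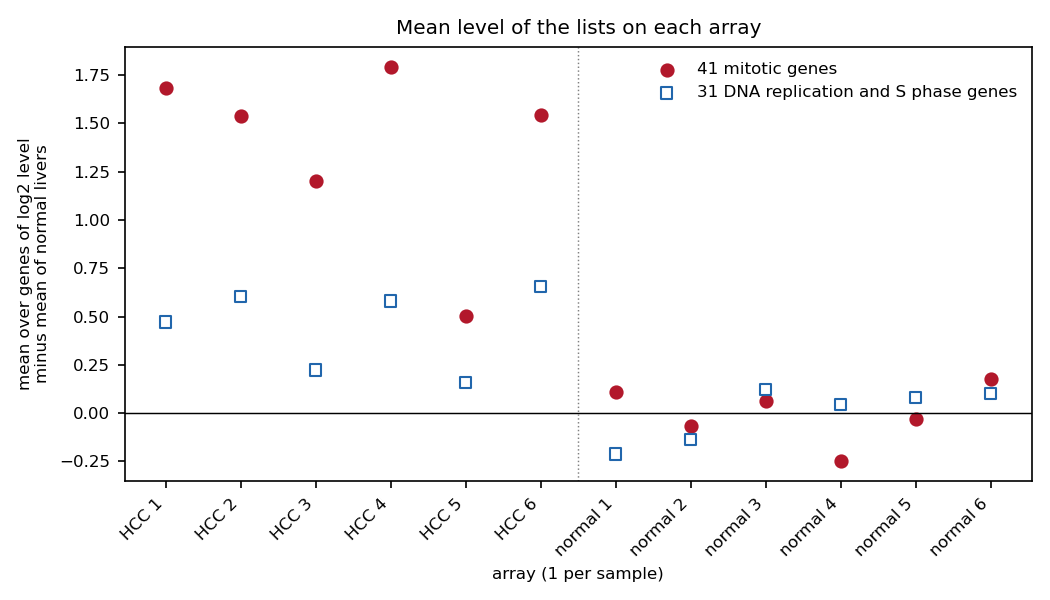
Mean of 41 mitotic genes (filled circles) and of 31 DNA replication and S phase genes (open squares) on each of 12 arrays, as the mean log2 difference from normal liver. The mitotic mean lies between 1.20 and 1.79 in 5 HCC and at 0.50 in HCC 5, and the S phase mean between 0.16 and 0.66 in HCC.

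Other genes of the division machinery were compared in lists that share no gene with the 41. Of 146 such genes 35 rose and 6 fell, with a median difference of 0.38, beside 6.48% and 7.24% of all genes. In the list of spindle and cytokinesis genes 11 of 23 rose and 1 fell (median 0.80), among them Arhgap11a at 1.71 ± 0.39, Shcbp1 at 1.55 ± 0.48 and Troap at 1.53 ± 0.23 (adjusted p = 0.0122, 0.0494 and 0.00113). The call of Shcbp1 was lost without any 1 of 10 arrays (all but HCC 5 and normal 5; adjusted p up to 0.102). Of 19 passenger, condensin and cohesin genes 9 rose and none fell (median 0.58), led by the shugoshins Sgo2a at 1.98 ± 0.38 and Sgo1 at 1.59 ± 0.32, which guard centromeric cohesion, and by the passenger subunit Incenp at 1.42 ± 0.32 (adjusted p = 0.00552, 0.00656 and 0.012). Second probe sets of Sgo1 and Troap were at -0.15 and 0.64 and did not pass. Of 4 other probe sets of Incenp 1 passed, at 0.79, and the rest were at 0.23, 0.11 and -0.52. The brightest of Incenp ends in _x_at. Of 14 G2/M regulators 3 rose (median 0.66): the centrosomal kinase Nek2 at 1.88 ± 0.28, and Pkmyt1 at 1.63 ± 0.39 and Wee1 at 1.11 ± 0.29, the kinases that hold Cdk1 inactive (adjusted p = 0.00109, 0.0161 and 0.0246). Other probe sets of Nek2 were at 0.66, 0.18 and -0.09, of Pkmyt1 at 0.52 and of Wee1 at 0.74, none past the test. Wee1 lost its call without any 1 of 5 arrays (HCC 4 and 6, normal 2, 4 and 5; adjusted p up to 0.0552).

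The lists of kinetochore, anaphase promoting complex and transcription factor genes had smaller medians. Beside 6.48% of all genes that rose and 7.24% that fell, calls this few are not read as a result about these lists. Of 25 other kinetochore and centromere genes 2 rose and 3 fell (median 0.30). Those that fell were Nsl1 at -2.06 ± 0.51 and Pmf1 at -1.26 ± 0.31, subunits of the MIS12 complex, and Spc24 at -1.51 ± 0.29, of the NDC80 complex (adjusted p = 0.0184, 0.0173 and 0.00514). Second probe sets of Nsl1 and Pmf1 were at 0.25 and -1.18 and did not pass. Of 15 subunits and regulators of the anaphase promoting complex 1 rose, Anapc4 at 0.37 ± 0.11 (adjusted p = 0.0375), whose call was lost without any 1 of 11 arrays (all but HCC 1; up to 0.0821). Of 19 E2F, MuvB and B-Myb genes 1 rose, the p107 pocket protein Rbl1 at 1.14 ± 0.20, and 1 fell, the MuvB subunit Lin52 at -0.69 ± 0.19 (adjusted p = 0.00322 and 0.0321). Other probe sets of Rbl1 were at 0.25, -0.17 and -0.18, of Lin52 at -0.09 and of Anapc4 at 0.26, none past the test. The call of Lin52 was lost without any 1 of 8 arrays (all but HCC 1, HCC 4, normal 3 and normal 6; up to 0.072).

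Of 31 DNA replication and S phase genes 8 rose and 1 fell, with a median of 0.46, beside 6.48% and 7.24% of all genes. The helicase subunit Mcm6 rose by 1.96 ± 0.22 and the ribonucleotide reductase subunit Rrm2 by 1.73 ± 0.47, while the replication initiation factor Mcm10 fell by 2.71 ± 0.39 on the log2 scale (adjusted p = 0.000187, 0.029 and 0.000902). The call of Rrm2 was lost without any 1 of 7 arrays (HCC 1, 2, 4 and 6, normal 1, 2 and 3; up to 0.0638). The value for Mcm10 comes from its brightest probe set, and the others gave -0.97 and 0.06 without passing. Its mean level was 8.35 in 6 HCC (SD 0.849) and 11.06 in 6 normal livers (SD 0.589). The S phase mean relative to normal liver was 0.47, 0.60, 0.22, 0.58, 0.16 and 0.66 in HCC 1 to 6, so HCC 5 and HCC 3 were lowest in both lists.

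Marker lists of cell types were read on the same arrays, beside 6.48% of all genes that rose and 7.24% that fell. Of 7 measured hepatocyte markers 1 fell, the tyrosine aminotransferase Tat at -1.14, and the mean log2 level of the list lay between 14.45 and 15.07 in HCC and between 14.96 and 15.12 in normal liver. None of 6 T and NK cell markers and none of 5 B and plasma cell markers passed, with list means between 5.87 and 7.07 and between 6.76 and 7.85 in HCC, against 5.88 to 6.38 and 6.54 to 7.85 in normal liver. The smallest p values in these lists were those of Nkg7, at 0.77 ± 0.29, and Ms4a1, at -0.43 ± 0.33 (adjusted p = 0.0935 and 0.44). Of 8 granulocyte precursor markers the serine protease Prtn3 rose, by 2.98 ± 0.59 (adjusted p = 0.00628), with list means between 6.63 and 7.74 in HCC and between 6.03 and 6.83 in normal liver. Of 6 erythroid markers Slc4a1 rose by 1.31 ± 0.25 and Klf1 fell by 1.05 ± 0.22 on the log2 scale (adjusted p = 0.00552 and 0.00868), with list means between 8.04 and 8.71 in HCC and between 7.63 and 8.62 in normal liver. Of 8 markers each, myeloid and Kupffer cell markers had 2 lower (Clec4f at -2.36 and Cd163 at -1.16), endothelial markers 2 lower (Clec4g at -2.13 and Stab2 at -1.11), and stellate and fibroblast markers 1 higher and 2 lower (Col1a1 at 3.27, Lrat at -2.52 and Dcn at -2.07). The median differences of these lists were 0.26 for myeloid, -0.39 for endothelial and 0.72 for stellate and fibroblast markers, and at an unadjusted p under 0.05 each had 2 members higher and 2 lower. Their list means were 8.17 to 10.31 in HCC and 8.53 to 9.57 in normal liver for myeloid, 7.97 to 9.44 and 8.57 to 9.61 for endothelial, and 7.28 to 12.18 and 8.56 to 9.50 for stellate and fibroblast markers. Second probe sets of Clec4g, Col1a1 and Dcn were at -0.34, 1.33 and -0.82 and did not pass. That of Lrat was at -1.73 and passed. Other probe sets of Slc4a1 were at 1.88, which passed, and 0.23, which did not. None of 5 cholangiocyte markers passed, with Cftr at 0.74 ± 0.39 (adjusted p = 0.237) and list means between 5.86 and 7.68 in HCC and between 6.36 and 6.95 in normal liver. Calls of Tat, Cd163, Col1a1 and Dcn were each lost on leaving out single arrays: Tat without any but HCC 3 and 5, Cd163 without any but HCC 3 and 5 and normal 1, 2 and 3, Col1a1 without any but HCC 1, 2 and 6 and normal 6, and Dcn without any but HCC 5 and 6, with adjusted p up to 0.0719, 0.075, 0.0832 and 0.0926. The files hold no detection calls, so no marker can be called absent, and the part of these cell types in the mitotic values was not tested. Y-linked transcripts were high on 4 arrays of each group and low on HCC 1, HCC 4, normal 1 and normal 3, and with their level as a covariate 29 of the 41 genes rose. Xist was at 11.79 to 12.70 on the arrays low in Y-linked transcripts and at 5.12 to 7.56 on the others. By these transcripts the former read as female. HCC 4 and HCC 1, the tumours that read as female, had the highest means of the 41 genes, 1.79 and 1.68. Whether sex bears on that was not tested.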

How the data were processed

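RNA of 6 HCC and 6 normal liver samples was measured on single-colour Affymetrix arrays after TRIzol and column extraction and one-cycle labelling with biotin, per the labels' protocols. The deposited values are linear intensities of 45101 probe sets, between 0.104 and 82665.9, with a 2% trimmed mean of 500.0 on each array; the summarising software was not given in the sources used here. Medians differed between arrays, from 92.4 to 114.3, so log2(intensity + 16) was quantile normalized over all probe sets. Of the probe sets other than 64 controls, 34945 named 1 gene, 932 several and 9160 none (platform annotation); the brightest by mean over 12 arrays stood for each gene.

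HCC was compared with normal liver by limma 3.58.1 (lmFit, eBayes, R 4.3.3), two-sided, over all 18193 genes; it was tested on simulated data. Intervals are limma's 95%. Named were all measured members and, of each other list, up to 3 members past the test with the largest difference, or the smallest p. Members and lists were chosen with earlier results of these data known. The number of arrays limits precision. The labels do not say that samples came from separate animals, so p-values measure only the spread between these samples, which may be technical. Equal replicate numbers did not pair arrays (correlations of deviations between -0.0147 and 0.0778). Alternatives covered normalization, pseudocounts, leaving out dim genes, averaging a gene's probe sets, variance models, array weights, the replicate block, each array left out, an exact Wilcoxon test, a stricter threshold and a Y-linked covariate; testing every probe set was added after seeing the data. Python 3.11.15, pandas 2.3.3, numpy 2.4.6 and matplotlib 3.10.9 made tables and figures.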

Additional observations from a re-analysis of the deposited data

Results flagged for a closer look

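Within a group of 6 arrays, a level was singled out where its gap to the nearest other array passed Dixon's 95% critical value for the range of the group; chance gives this in about 1 in 20 groups. Among 84 groups tested (the 41 genes and their mean, in HCC and in normal liver), 10 of the 14 such levels were HCC 5, each below the other tumours. HCC 5 stood at 7.24 for Cdk1 (nearest other tumour 8.65), 6.73 for Aurka (8.21), 6.25 for Melk (6.81), 4.74 for Nuf2 (7.21) and 6.42 for Cenpf (7.67). It stood at 7.92 for Ube2c (nearest 9.27), 6.15 for Kif11 (7.05), 5.25 for Kif4 (7.66), 7.56 for Nusap1 (8.34) and 5.09 for Ncapg (6.85). Over all genes 0.643% had HCC 5 that far below the other tumours. The 41 genes were read on the same arrays, so the groups are not independent. The 10 levels of HCC 5 all come from 1 sample. The other 4 levels were in normal livers: normal 4 was low for Plk1 at 5.72 (nearest 6.41), normal 3 high for Melk at 6.30 (4.61), and normal 1 high for Foxm1 at 6.44 (5.31) and for Kif23 at 7.03 (5.64). The mean of the 41 genes gave no such level in either group. For that mean HCC 5 lay 0.50 above normal liver and the nearest other tumour, HCC 3, lay 1.20 above it.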

How the results depend on the processing

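The median difference of the 41 genes stayed positive under every alternative run, between 1.02 with a pseudocount of 64 and 1.78 with a pseudocount of 1, and between 1.33 and 1.66 with single arrays left out. Of the 41 genes 29 rose with the deposited scaling, 28 with median centring, 25 with a pseudocount of 1 and 27 with array weights. Of all 18193 genes 1403, 1069, 1084 and 1176 rose with these settings, in the same order. With dim genes left out, 6 remained measured and 5 rose, since fewer were tested. That filter used the mean over HCC and normal arrays together, so a high level in HCC helped a gene to stay. Mki67 and Ube2c stayed with normal-liver means of 6.63 and 6.43 and HCC means of 9.04 and 9.25. The share that rose was thus partly set by the filter and cannot serve as a check on the rise. An exact Wilcoxon test called 19 of the 41 and 19 of the 146 related genes higher, beside 1014 of all genes. At an adjusted p under 0.01, 19 of the 41 rose, 10 related genes rose and 3 fell, and over all genes 515 rose and 461 fell. With the replicate number as a block, 27 of the 41 and 23 related genes rose, and over all genes 862 rose and 839 fell. The equal numbers share no known source. With single arrays left out, 23 to 29 of the 41 rose and 0 to 1 fell (Bub1b, without normal 4, adjusted p = 0.0208), and 22 to 40 related genes rose, 22 without HCC 6, 23 without HCC 4 and 40 without HCC 5. Over all genes 895 (without normal 5) to 1222 (without HCC 2) rose in these runs. The mean of all probe sets turned Bub1 to 1.13, Bub1b to 0.61, Aspm to 0.76 and Pttg1 to 0.0063, and lost the calls of Cenpa, Top2a and Ttk (adjusted p = 0.49, 0.0893 and 0.121); Bub1, Bub1b and Aspm passed instead (0.0139, 0.0188 and 0.00486), so 29 rose. Aspm was at 0.052 with the deposited scaling. With single arrays left out Aspm ran between -0.088 and 0.091 and Pttg1 between -0.039 and 0.054, none past the test. Where no construction shows it, the cause was not tested. Dim signal limits these values: 35 of the 41 genes had a normal-liver mean under the median probe set.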
